A study of Mus musculus with 8 samples.

Results

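The hepatic carriers of bile acids and other organic anions were examined as 9 genes, taken by symbol from the 11784 genes of the deposited liver expression table, and all 9 were present. The uptake group held Slc10a1, Slco1a1, Slco1a4 and Slco1b2, and the export group held Abcb11, Abcb4, Abcc2, Abcc3 and Abcc4. Poly(A) RNA of the liver was sequenced in 4 mice fed the Control diet and 4 mice fed the Low AA diet. Both were amino acid-defined diets, the second with less amino acid and, per the study's methods, more carbohydrate. All 8 were male C57BL/6J mice that began their diet at 9 weeks of age, received it for 4 months and were fasted overnight for about 16 hours before the liver was taken. The labels name no engineered allele and no drug, and each sample is 1 mouse. Mice are named here by the codes of the table, F129, F2212, F7111 and F2110 for Control and H1126, H828, H817 and H1315 for Low AA. Each value is a scaled read count, that is, the reads of a gene in 1 mouse after the authors scaled and rounded them.

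Bile acids return to the liver in portal blood and are taken up across the sinusoidal membrane of the hepatocyte, chiefly by the sodium-dependent carrier encoded by Slc10a1 (NTCP) and by the sodium-independent organic anion transporters of the Slco family. They leave again across the canalicular membrane into bile through ATP-driven pumps, or across the basolateral membrane back into blood through Abcc3 and Abcc4. Uptake and canalicular export together drive bile flow, and the genes of both steps are known targets of nuclear receptors such as FXR. The sequencing was done to learn how reduced dietary amino acids alter hepatic gene expression, including the genes of bile acid signalling through FXR and FGF15, and the present comparison asks whether the carriers of each step differed between the diets.

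The scaled read counts summed to between 28361406 and 29485422 in the Control mice and between 27876664 and 30799385 in the Low AA mice. The sums of 6 hepatocyte markers overlapped between the diets, from 2074630 to 2428660 in Control and from 2301130 to 2504540 in Low AA. Mouse F2212 stood apart in the mean of 22 acute-phase genes, which was 1.23 above the mean of all mice on the log2 scale, and H828 stood at the other end, at -1.15, whereas the other 6 mice lay between -0.32 and 0.24. F2212 also held 36587 scaled read counts of Cela1, a pancreatic acinar elastase, against 130 to 288 in the other 7 mice.

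None of the 9 transporters differed between the diets at an adjusted p under 0.05 (limma on log2 of the value plus 1, Benjamini-Hochberg over all 11784 genes). Over all genes 47 were called, or 0.399%. At an unadjusted p under 0.05 the transporters held 1 gene, Abcc3, or 11.1%, against 11.8% of all genes. Abcc3 was also the only member whose mice did not overlap between the diets, as 6.81% of all genes did. Its values were lower on Low AA, and of all genes 3.55% were lower without overlap. The median log2 fold change of Low AA over Control was 0.09 over the 9 genes and 0.00 over all genes, and 6 of the 9 fold changes were above 0. The 95% intervals of 7 of the 9 lay between -1 and 1 on the log2 scale, and those of Slco1a4 and Abcc3 reached past it.

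**Figure D1:**
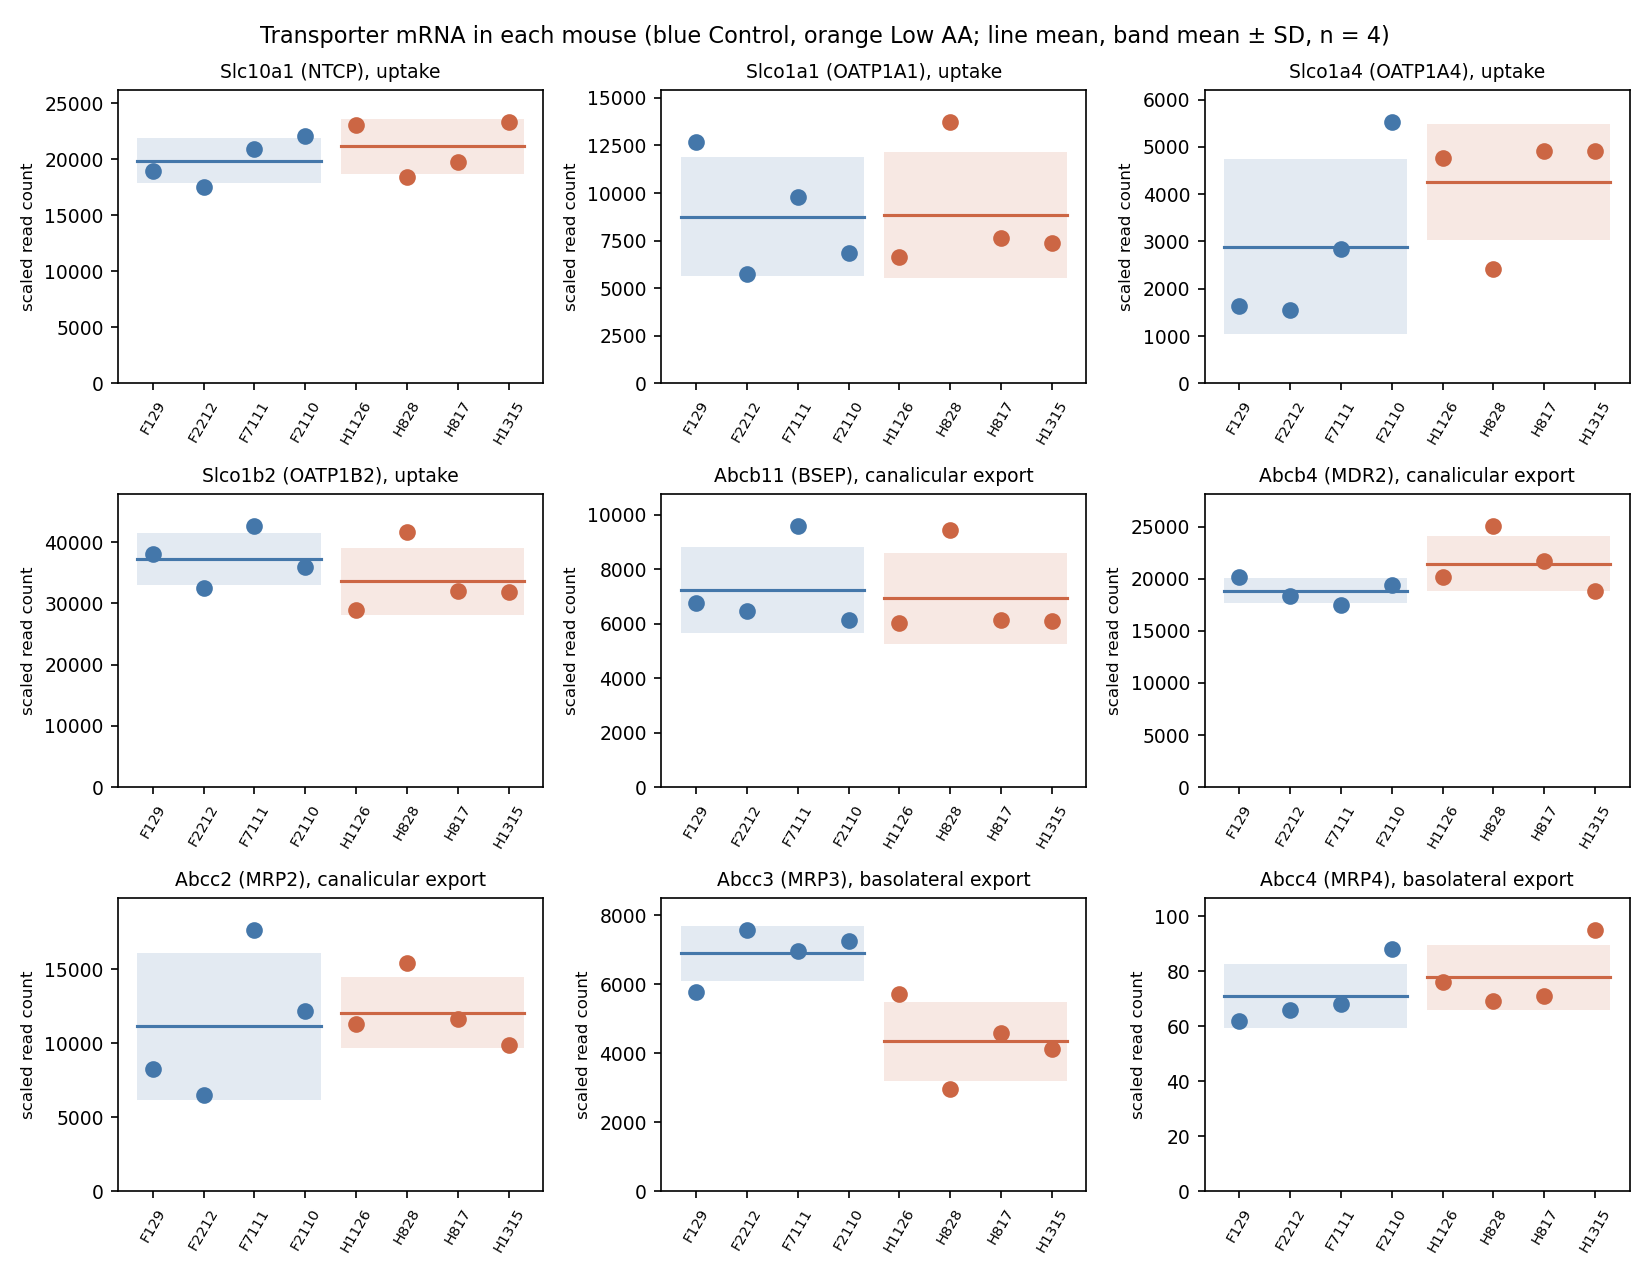
Scaled read counts (linear axes from 0) of the 9 transporters, with 1 point per mouse (blue Control, orange Low AA), a line at the mean of the 4 mice of each diet and a band for the mean ± SD. The points of the diets overlap in every panel except that of Abcc3, where the Control mice sit at 5769 or more and the Low AA mice at 5718 or less.

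Each gene was placed on the mouse genome (GRCm38, GENCODE M21). Slco1a1 (chr6:141907282-141946962, minus strand), Slco1a4 (chr6:141805440-141856199, minus strand) and Slco1b2 (chr6:141629518-141686646, plus strand) are neighbours on chromosome 6, while Slc10a1 lies at chr12:80953183-80968705 on the minus strand. The canalicular pumps lie at chr2:69238282-69342616 on the minus strand (Abcb11), chr5:8893717-8959231 on the plus strand (Abcb4) and chr19:43782192-43840740 on the plus strand (Abcc2). The basolateral pumps lie at chr11:94343295-94392997 (Abcc3) and chr14:118482692-118706219 (Abcc4), both on the minus strand. Abcb11 is overlapped on the other strand by the antisense gene Gm13613, and the libraries were stranded according to the study's methods, but how strand was used in counting is not given in the sources used here. Reads of near-identical copies could be split between them, so stretches of 100 bases, the read length, were compared between transcripts. Slco1a4 shared 1.10% of its stretches and Slco1a1 0.867% with each other or with Slco1a5, Abcb4 shared 0.276% with Abcb1a, and the other 6 members shared none.

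The bases just upstream of 3 members, Abcb11, Slco1b2 and Slco1a1, are shown. Any 2 of them lay on the same side of their means in 6 or 7 of 8 mice, and the half-site of nuclear receptors occurs in each. They were picked for both features, so finding both in the same genes is no result. Slc10a1 and Abcc2, which also hold the half-site, lay on the same side as these members in 3 to 5 of 8 mice. They are RefSeq sequence of GRCm38.p6, written 5′ to 3′ on the strand of the gene, with the half-site AGGTCA or its reverse complement TGACCT in capitals. The regions are chr2:69342617-69342866 on the minus strand for Abcb11, chr6:141629268-141629451 on the plus strand for Slco1b2 and chr6:141946963-141947212 on the minus strand for Slco1a1. Those of Abcb11 and Slco1a1 end at the base before the gene, while that of Slco1b2 stops further upstream, because RefSeq holds transcripts that begin before the start at 141629518, from which distances are counted here.
Abcb11: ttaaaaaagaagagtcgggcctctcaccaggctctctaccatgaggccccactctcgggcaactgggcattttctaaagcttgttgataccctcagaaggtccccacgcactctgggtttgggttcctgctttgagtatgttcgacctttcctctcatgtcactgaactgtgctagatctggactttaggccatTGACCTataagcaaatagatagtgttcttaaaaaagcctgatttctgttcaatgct
Slco1b2: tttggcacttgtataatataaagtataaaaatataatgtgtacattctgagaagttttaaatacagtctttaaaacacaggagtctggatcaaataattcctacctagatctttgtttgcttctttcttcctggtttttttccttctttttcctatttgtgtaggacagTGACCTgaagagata
Slco1a1: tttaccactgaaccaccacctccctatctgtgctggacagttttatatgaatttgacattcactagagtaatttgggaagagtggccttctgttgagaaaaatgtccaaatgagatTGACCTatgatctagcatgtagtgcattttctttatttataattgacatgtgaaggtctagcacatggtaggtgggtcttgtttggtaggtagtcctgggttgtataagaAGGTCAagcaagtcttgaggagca
In the 250 bases before the start used in the RefSeq table, AGGTCA was found on either strand in 5 of the 8 members with an entry, which were the above genes plus Slc10a1 and Abcc2, and in 14% of 32851 promoters of the same length. The first base of the half-site lay 56 bases before the start in Abcb11 and 81 bases before it in Slco1b2, both antisense to the gene. Slco1a1 held it 134 bases before the start (antisense) and again 24 bases before it (sense). The inverted repeat AGGTCANTGACCT, which contains the half-site on both strands, was in 0 of the 8 members and in 2 of all promoters, or 0.00609%. Only full matches were counted. The stretch aggccatTGACCT of Abcb11, which holds its half-site, comes close to the repeat without matching it in full. The motifs were chosen after expression values had been seen, and a match of letters describes the sequence alone.

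The levels of the members can be compared with each other only per length, as scaled read counts per kilobase of exon. In the Control mice the highest level was that of Slco1b2 at 11277 ± 1278 per kilobase (SD, n = 4), followed by Slc10a1 at 9045 ± 910 per kilobase. Their Control ranges overlapped, and with the length of the longest coding transcript in place of all exons Slc10a1 came first, at 11373 per kilobase. Abcb4 followed at 4618 ± 293 per kilobase and Slco1a1 at 2161 ± 768 per kilobase, each apart from the gene above it. Abcb11 (1407 ± 309), Abcc2 (1387 ± 617) and Abcc3 (1377 ± 158) were at the same level per kilobase within their spread, the Control range of Abcb11 overlapped that of Slco1a1, and Slco1a4 (756 ± 485) overlapped Abcc3. Abcc4 was far below the others, at 12.4 ± 2.03 per kilobase. The phospholipid floppase Abcb4 was the most abundant of the export transcripts, and the basolateral pumps were represented almost wholly by Abcc3.

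**Figure D2:**
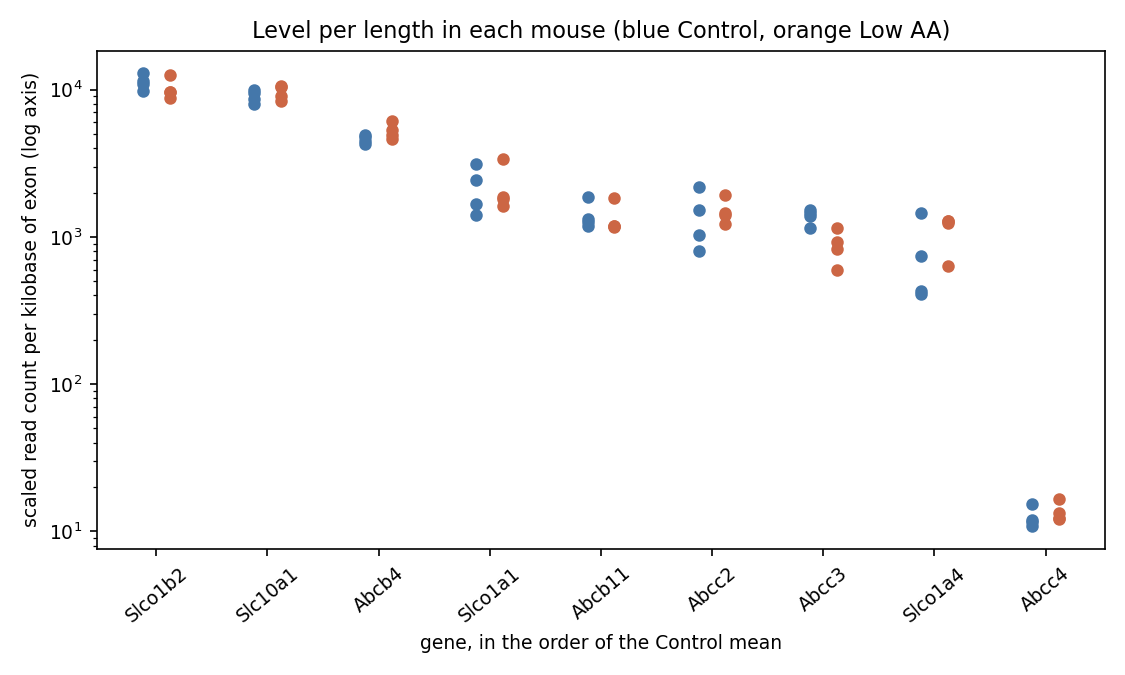
Level of each transporter as scaled read counts per kilobase of exon (log10 axis), 1 point per mouse (blue Control, orange Low AA), in the order of the Control means. Abcc4 sits near 12.4 per kilobase, and all the other genes sit at 407 per kilobase or above in every mouse.

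Among the uptake carriers, the principal bile acid carrier Slc10a1 was nearly level between the diets. Its scaled read counts were 18981 in F129, 17570 in F2212, 20961 in F7111 and 22050 in F2110 on Control, and 23096 in H1126, 18439 in H828, 19789 in H817 and 23356 in H1315 on Low AA. The ranges overlapped, with F2212 below every Low AA mouse and H1126 and H1315 above every Control mouse. The log2 fold change of Low AA over Control was 0.09 (SE 0.12, 95% interval -0.17 to 0.35, limma adjusted p = 0.838), so the interval admits at most a 1.28-fold higher value on Low AA. With any 1 mouse left out it lay between 0.03 and 0.15.

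Slco1b2, the liver-specific organic anion transporter and the mouse counterpart of the human OATP1B carriers, had 38025, 32572, 42666 and 35912 scaled read counts in the Control mice F129, F2212, F7111 and F2110. The Low AA mice H1126, H828, H817 and H1315 had 28926, 41584, 32051 and 31844. Of the Low AA mice 3 lay below every Control mouse, while H828 lay above all of these except F7111. Low AA over Control gave a log2 fold change of -0.16 (SE 0.14, 95% interval -0.46 to 0.15, limma adjusted p = 0.734). With any 1 mouse left out it ranged from -0.26 (without H828) to -0.09 (without H1126 or without F7111).

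Slco1a1, an organic anion transporter with male-biased expression in mouse liver, spread over 2.20-fold within Control and 2.08-fold within Low AA. Its scaled read counts were 12662 (F129), 5755 (F2212), 9812 (F7111) and 6832 (F2110) on Control and 6613 (H1126), 13742 (H828), 7620 (H817) and 7389 (H1315) on Low AA. H828 was the highest of all mice and F2212 the lowest. On the log2 scale the fold change was 0.02 (SE 0.28, 95% interval -0.60 to 0.63, limma adjusted p = 0.989), and it changed sign to -0.22 without H828, to -0.16 without F2212 and to -0.08 without F2110.

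Slco1a4, which carries bile acids and cardiac glycosides and is inducible by drug-sensing nuclear receptors, had the largest positive fold change of the 9 members and the widest spread over the 8 mice. The Control mice held 1639 (F129), 1557 (F2212), 2840 (F7111) and 5531 (F2110) scaled read counts, and the Low AA mice held 4759 (H1126), 2412 (H828), 4920 (H817) and 4920 (H1315). In each diet 1 mouse went against the others, F2110 being the highest of all 8 and H828 lying below F7111. Mean levels were 2892 ± 1855 on Control and 4253 ± 1230 on Low AA (SD, n = 4 each). On the log2 scale the fold change was 0.70 (SE 0.39), which is 1.62-fold between the means of the log2 values, with a 95% interval from 0.895 to 2.94. It had a limma adjusted p of 0.537 and was smaller than the spread between mice could resolve. Without F2110 it was 1.08 (limma adjusted p = 0.219), and without F2212 it was 0.47 (limma adjusted p = 0.680).

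The neighbouring genes Slco1a1 and Slco1a4 went in opposite directions from mouse to mouse. They lay on the same side of their own means in only 1 of 8 mice. Of all pairs of members they had the largest root mean square difference of centred log2 values (0.957). The ratio of Slco1a4 to Slco1a1 counts was lowest in F129, 0.271 in F2212, 0.289 in F7111 and 0.810 in F2110, and 0.720, 0.176, 0.646 and 0.666 in H1126, H828, H817 and H1315. It was thus 0.646 or above in 3 of the Low AA mice and in 1 Control mouse, and the diets overlapped.

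Among the canalicular pumps, Abcb11 (BSEP), the ATP-driven pump that secretes bile salts into bile and a classical FXR target, had 6766 (F129), 6468 (F2212), 9595 (F7111) and 6126 (F2110) scaled read counts on Control. On Low AA it had 6043 (H1126), 9458 (H828), 6149 (H817) and 6085 (H1315). In each diet 3 mice lay close together, between 6043 and 6766, and a single mouse lay far above them. Between the diets the log2 fold change was -0.07 (SE 0.18, 95% interval -0.47 to 0.34, limma adjusted p = 0.931), and its sign turned without F7111, to 0.08.

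Abcb4 (MDR2), which moves phosphatidylcholine to the canalicular face of the membrane, varied least within Control. Its values there were 20140, 18331, 17434 and 19447 scaled read counts in F129, F2212, F7111 and F2110, against 20192, 25071, 21721 and 18851 in H1126, H828, H817 and H1315. Of the Low AA mice 3 were above every Control mouse and H1315 was within the Control range. The log2 fold change of 0.18 (SE 0.11, 95% interval -0.07 to 0.43) had a limma adjusted p of 0.591, and it lay between 0.10 (without H828) and 0.24 (without H1315) with any 1 mouse left out.

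Abcc2 (MRP2), the canalicular pump of bilirubin glucuronides and glutathione conjugates, ranged over 2.72-fold among the Control mice, from 6483 in F2212 through 8242 in F129 and 12161 in F2110 to 17651 in F7111. The Low AA mice lay inside that range, at 11285 (H1126), 15443 (H828), 11663 (H817) and 9890 (H1315). Its log2 fold change was 0.20 (SE 0.28, 95% interval -0.41 to 0.81, limma adjusted p = 0.841), with -0.02 without F2212 and 0.46 without F7111. The Abcc2 transcript is long, 8027 bases, and transcripts over 6000 bases as a class had their lowest median in F2212 (-0.29 on the log2 scale) and their highest in F7111 (0.21), with the class under 2000 bases at 0.20 and -0.18 in the same mice. After a correction for transcript length within each mouse, the Control range of Abcc2 was 0.96 in place of 1.44 on the log2 scale. The same correction widened the Control range of Slc10a1 from 0.33 to 0.47, of Abcb4 from 0.21 to 0.27 and of Abcc3 from 0.39 to 0.48. It narrowed that of Slco1a1 from 1.14 to 1.09, of Slco1a4 from 1.83 to 1.79 and of Slco1b2 from 0.389 to 0.385. That of Abcb11 narrowed from 0.65 to 0.59 and that of Abcc4 from 0.50 to 0.44. The part of transcript length in these ranges was not tested.

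Of the basolateral pumps, Abcc3 (MRP3), which returns glucuronides and bile salts from hepatocytes to blood, had the largest negative fold change of the 9 members and the smallest p. The Control mice held 5769 (F129), 7575 (F2212), 6958 (F7111) and 7264 (F2110) scaled read counts, and the Low AA mice held 5718 (H1126), 2967 (H828), 4595 (H817) and 4113 (H1315). Every Low AA mouse was below every Control mouse, though H1126 and F129 almost met. The means were 6892 ± 790 on Control and 4348 ± 1140 on Low AA (SD, n = 4 each). Between the means of the log2 values, Low AA stood at 0.617 of Control, with a 95% interval from 0.467 to 0.816. The log2 fold change of -0.70 (SE 0.18) had an unadjusted limma p of 0.00312 and an adjusted p of 0.147, and it was not called. With F2212 and H828 both left out the log2 fold change was -0.48 (limma adjusted p = 0.243), and with any 1 mouse left out it lay between -0.84 and -0.53 (limma adjusted p from 0.112 to 0.339).

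In bulk liver, fewer cells of a type and less RNA per cell cannot be told apart, and Abcc3 is also expressed in bile duct cells. The cholangiocyte markers were therefore set beside it. Of 8 such markers 6 were measured, none of them at 0, their summed level was 1468 to 2674 scaled read counts in Control and 1161 to 1747 in Low AA, and their median log2 fold change was -0.51. At an unadjusted p under 0.05, 2 of the 6 had lower values on Low AA, Krt19 with log2 fold change -0.87 (limma adjusted p = 0.340) and Sox9 with -1.05 (limma adjusted p = 0.283). At that threshold 11.8% of all genes differed, in either direction. Krt19 lay near the floor of the table, with 43, 28, 27 and 70 scaled read counts in Control and 30, 17, 16 and 23 in Low AA. The table held only genes with at least 28 in at least 3 mice. Krt19 and Prom1 did not reach this within Low AA alone, so both were kept through the Control mice. Their falls, and the list median that holds them, are therefore no measure of bile duct cells. Krt7 and Cftr were also sought, by symbol or synonym, and matched no gene of the deposited table. The mice at the ends of the Abcc3 range were also those that stood apart in the acute-phase genes, F2212 highest and H828 lowest in both. The part of either in the Abcc3 difference was not tested, and the difference without those mice is given above.

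Abcc4 (MRP4), the other basolateral pump and a gene induced in cholestasis, was barely expressed, with 62 (F129), 66 (F2212), 68 (F7111) and 88 (F2110) scaled read counts on Control and 76 (H1126), 69 (H828), 71 (H817) and 95 (H1315) on Low AA. The diets overlapped, with an SD of 11.6 in Control and 11.9 in Low AA. For Abcc4 the log2 fold change was 0.13 (SE 0.17, 95% interval -0.26 to 0.52, limma adjusted p = 0.836).

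**Figure D3:**
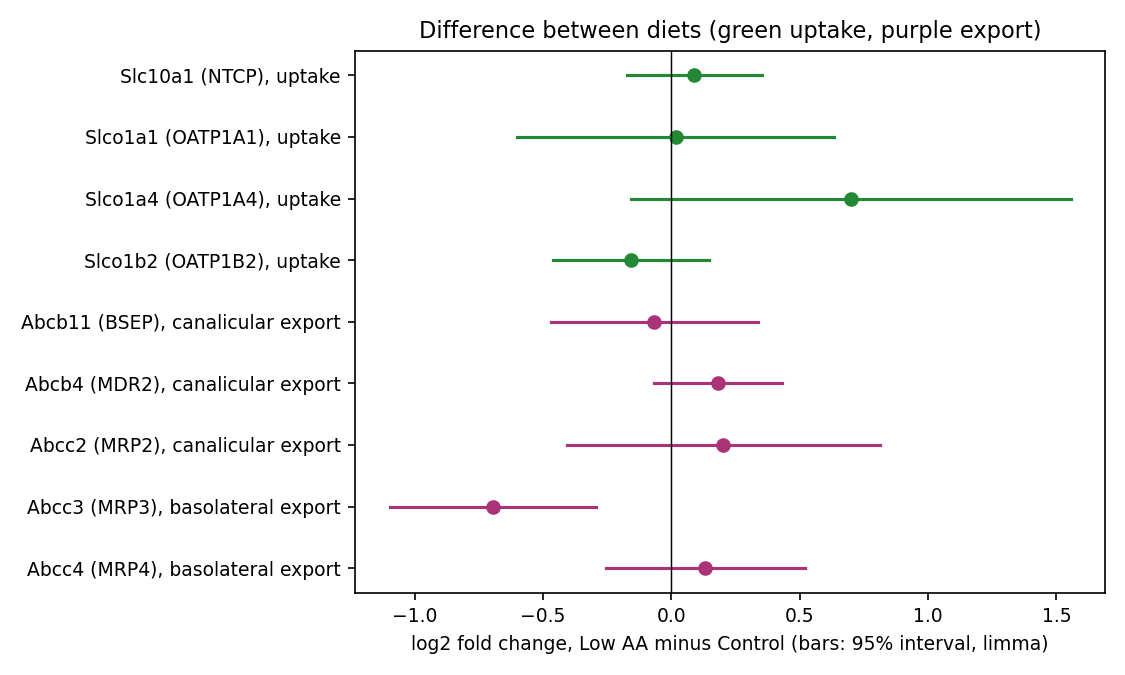
Log2 fold change of Low AA over Control for each transporter, with points at the limma estimate and bars for its 95% interval, with uptake in green and export in purple. The interval of Abcc3 lies wholly below 0, from -1.10 to -0.29, and all the others cross 0.

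Uptake and export were then set against each other within each mouse, as the mean log2 value of the 4 uptake genes minus that of the 5 export genes, each gene centred on its mean over all mice. This difference was 0.03 in F129, -0.34 in F2212, -0.15 in F7111 and 0.04 in F2110 on Control, and 0.04 in H1126, 0.04 in H828, 0.13 in H817 and 0.22 in H1315 on Low AA. All 4 Low AA mice were above 0 and 2 of the Control mice were at the level of the lowest Low AA mice, so the diets overlapped. The means were -0.11 ± 0.18 on Control and 0.11 ± 0.08 on Low AA (SD, n = 4 each), a difference of 0.21 on the log2 scale. It was made up of 0.16 in the uptake genes and -0.05 in the export genes. Of the uptake genes 3 had fold changes above 0 and 1 below, and of the export genes 3 above and 2 below, with median log2 fold changes of 0.05 and 0.13, so that the medians and the means of the groups are ordered differently. The uptake mean rests largely on Slco1a4 and the export mean on Abcc3, the members with the largest fold changes. The difference kept its sign with any 1 mouse left out, at values from 0.13 (without F2212) to 0.26.

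The balance between routes of export was followed as ratios of counts within a mouse. Abcc3 relative to Abcb11 was 0.853 (F129), 1.17 (F2212), 0.725 (F7111) and 1.19 (F2110) on Control and 0.946 (H1126), 0.314 (H828), 0.747 (H817) and 0.676 (H1315) on Low AA. Abcc3 relative to Abcc2 was 0.700, 1.17, 0.394 and 0.597 in the same order of Control mice and 0.507, 0.192, 0.394 and 0.416 in the Low AA mice. In both ratios H828 was the lowest mouse, and in both the diets overlapped.

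Much of the variation of these transcripts was between mice of the same diet. The highest mouse exceeded the lowest by more than 1.5-fold within Control for 4 of the 9 genes and within Low AA for 5. H828 was the highest Low AA mouse for 5 members, Slco1a1, Slco1b2, Abcb11, Abcb4 and Abcc2, and the lowest for the other 4, Slc10a1, Slco1a4, Abcc3 and Abcc4. F2212 was the lowest Control mouse for all 4 uptake carriers and Abcc2, and the highest for Abcc3. The root mean square difference of centred log2 values is small also where both genes vary little. It was smallest for Slc10a1 with Abcc4 (0.120), on the same side of their means in 7 of 8 mice. Next was Slco1b2 with Abcb11 (0.139), on the same side in 6 of 8 mice. Slc10a1 with Abcb4 also had a small difference (0.239), yet shared a side in only 2 of 8 mice. Slco1a1 was on the same side as Slco1b2 in 7 mice and as Abcb11 in 7 mice.

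**Figure D4:**
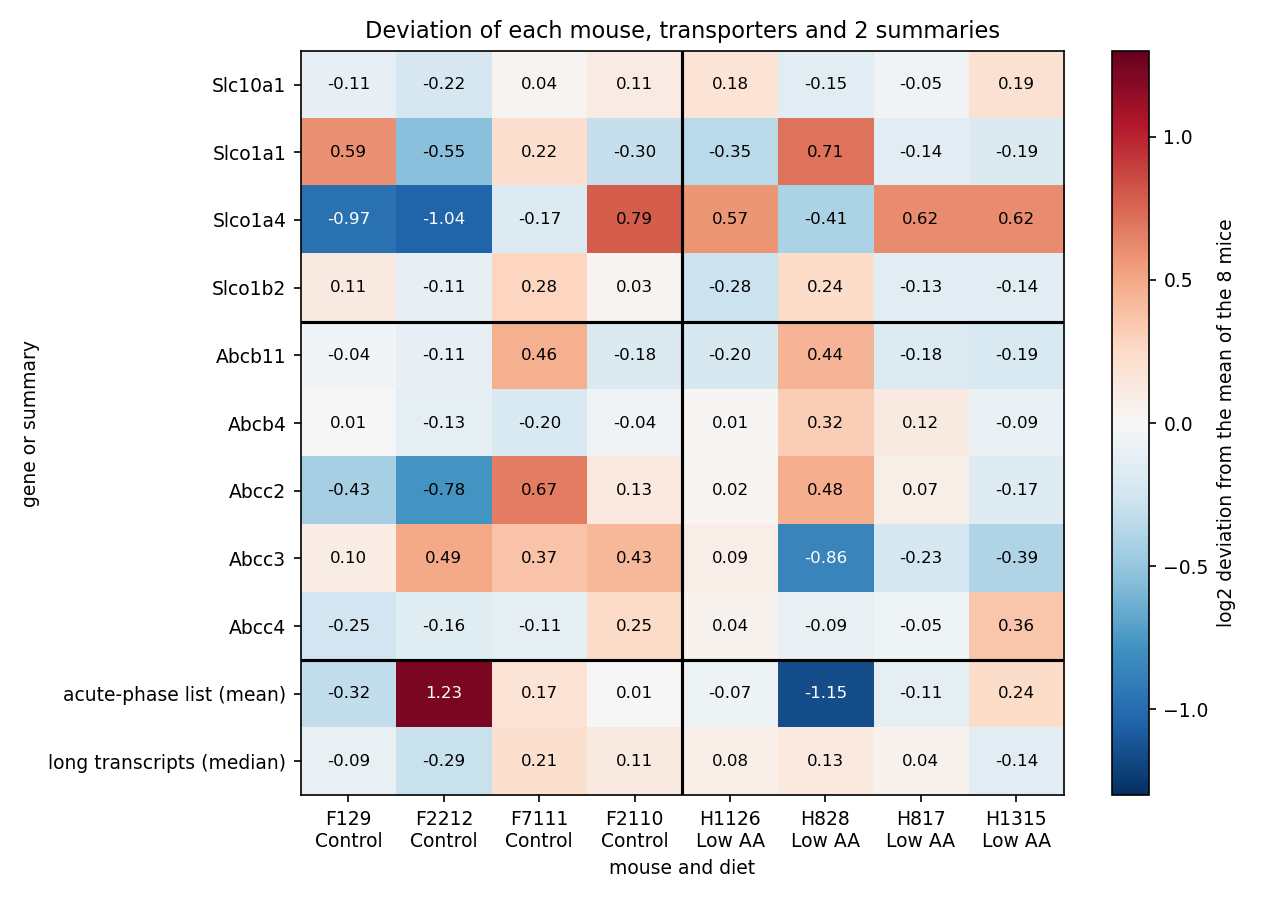
Deviation of each transporter in each mouse from its mean over all 8 mice (log2 scale, colour and printed value), with genes in rows and mice in columns, above the mean of the acute-phase genes and the median of transcripts over 6000 bases. Slco1a1 and Slco1a4 have opposite signs in 7 of 8 mice, and H828 holds the lowest Abcc3 value.

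Over the whole table, the genes nearest in profile to the 3 most variable members were sought by the root mean square difference of centred log2 values over the 8 mice. This difference tends to be larger for a gene with a wider spread, so its size is not comparable between the 3 members. For Slco1a4, with the widest spread (SD 0.749 on the log2 scale), the nearest were Cdcp1 (0.313) and Arg1 (0.325). Abcc3 was nearest to Gsta4 (0.136), a glutathione S-transferase, and to Pigr (0.157), the polymeric immunoglobulin receptor. Their log2 fold changes were -0.80 and -0.73 (limma adjusted p = 0.0642 and 0.0793). The difference between diets is part of the profile matched, so genes this near to Abcc3 share its fall by construction. Abcc2 was nearest to Ep300 (0.0723) and Atp13a3 (0.0942), with log2 fold changes of 0.16 and 0.25 (limma adjusted p = 0.870 and 0.771).

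Genes that surround these carriers in function were examined as 7 lists holding 126 measured genes. By limma 0 of the 126 passed an adjusted p under 0.05, and 22 had an unadjusted p under 0.05, or 17.5%, against 11.8% of all genes. By list that share was 25% for the other carriers, 6.25% for canalicular scaffolding and trafficking, 14.3% for regulators and 15.8% for bile acid synthesis. It was 22.7% for the acute-phase, 20% for the pericentral and 10% for the periportal genes. The other carriers of organic anions, cations and sterols were measured for 28 of 36 genes, of which 7 had an unadjusted p under 0.05, 3 with higher and 4 with lower values on Low AA, and their median log2 fold change was 0.01. Slc10a2 (ASBT), the sodium-dependent bile acid carrier of ileum and bile ducts, had 82, 93, 98 and 87 scaled read counts in F129, F2212, F7111 and F2110 and 29, 27, 67 and 30 in H1126, H828, H817 and H1315. No Low AA mouse reached the Control range, and H817 lay between. Its log2 fold change was -1.32 (SE 0.27, limma adjusted p = 0.0831). Without H817, its highest Low AA mouse, it was -1.62 and passed the threshold (limma adjusted p = 0.0111). Slc10a2 passed in no other fit with 1 mouse left out. Slc22a18, an organic cation transporter-like gene, stood at -0.58 on the log2 scale (limma adjusted p = 0.145).

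The genes that hold and sort transporters in the canalicular membrane were measured for 16 of 17, with 1 at an unadjusted p under 0.05 and a median log2 fold change of -0.10. That gene was Slc9a3r1 (NHERF1), a PDZ scaffold that binds ABC transporters of the apical membrane, with log2 fold change -0.58 (limma adjusted p = 0.181), and next was the tight junction gene Cgn with -0.22 (limma adjusted p = 0.466). Among nuclear receptors and other regulators 21 of 24 were measured and 3 had an unadjusted p under 0.05. They were Fgfr4, the hepatic receptor of FGF15, with log2 fold change -0.39 (limma adjusted p = 0.261), Stat5a, a transducer of growth hormone signals, with 0.52 (limma adjusted p = 0.266), and Nr0b2 (SHP), the corepressor induced by FXR, with 0.73 (limma adjusted p = 0.405). Nr0b2 overlapped between the diets, at 370 to 1022 scaled read counts in Control and 641 to 1247 in Low AA. The median of that list was 0.08.

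All 19 genes of the list for bile acid synthesis and conjugation were measured, and their median log2 fold change was -0.16. Of these, 3 had an unadjusted p under 0.05, 1 with higher and 2 with lower values on Low AA. The higher one was Cyp39a1, the oxysterol 7-alpha-hydroxylase, with 660 to 1339 scaled read counts in Control and 1730 to 2903 in Low AA and no overlap (log2 fold change 1.09, limma adjusted p = 0.0897). Ephx1, the microsomal epoxide hydrolase, is counted in the list and in its share of 15.8%, but is not an enzyme of bile acid synthesis. It had 11587, 12651, 9190 and 11135 scaled read counts in F129, F2212, F7111 and F2110 and 6804, 8358, 6719 and 6265 in H1126, H828, H817 and H1315, with no overlap. Its log2 fold change was -0.66 (limma adjusted p = 0.0653), and that of Cyp27a1, the sterol 27-hydroxylase of the alternative pathway, was -0.54 (limma adjusted p = 0.0847), also without overlap. Ephx1 passed the threshold with F7111, its lowest Control mouse, left out (log2 fold change -0.75, limma adjusted p = 0.0413). It passed in no other fit with 1 mouse left out.

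Of the 22 acute-phase genes 5 had an unadjusted p under 0.05, 2 with higher and 3 with lower values on Low AA. For this and the next lists the share over all genes is 11.8%. The higher ones were Apcs (1.03 on the log2 scale, limma adjusted p = 0.192, and 1.34 with adjusted p = 0.0242 without F2212) and Cp (0.26, limma adjusted p = 0.347). The lower ones were Saa1 at -3.49 (limma adjusted p = 0.261), Orm1 at -2.06 on the log2 scale (limma adjusted p = 0.0908) and Saa4 at -1.29 (limma adjusted p = 0.0915). Orm1 passed the threshold with H1315 left out (-2.44, limma adjusted p = 0.0415) and Saa4 with F2110 left out (-1.53, limma adjusted p = 0.0425). Apcs, Orm1 and Saa4 passed in no other fit with 1 mouse left out. In each case the mouse left out was the one of its diet closest to the other diet. The median of the list was -0.20. Of 10 pericentral genes 2 had an unadjusted p under 0.05, Cyp1a2 with -0.59 (limma adjusted p = 0.245) and Slc1a2 with -0.47 (limma adjusted p = 0.289), and the list median was -0.21. Of 10 periportal genes 1 did, Cyp2f2 with -0.77 (limma adjusted p = 0.131), followed by Hsd17b13 with 0.27 (limma adjusted p = 0.426), and the list median was -0.11. Markers of Kupffer cells (7 of 7 measured), stellate cells (6 of 6) and sinusoidal endothelium (6 of 6) overlapped between the diets in their summed levels, at 7369 to 10923, 7509 to 9777 and 5529 to 7569 in Control against 7813 to 11126, 7716 to 9666 and 6660 to 7125 in Low AA. All 7 Kupffer cell markers had log2 fold changes above 0 (median 0.24), with Emr1 at an unadjusted p under 0.05 (0.29, limma adjusted p = 0.418). Of the stellate markers 5 of 6 were below 0 (median -0.16), with Col1a1 lower without overlap (-1.07, limma adjusted p = 0.148), and of the endothelial markers 4 of 6 were above 0 (median 0.07).

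**Figure D5:**
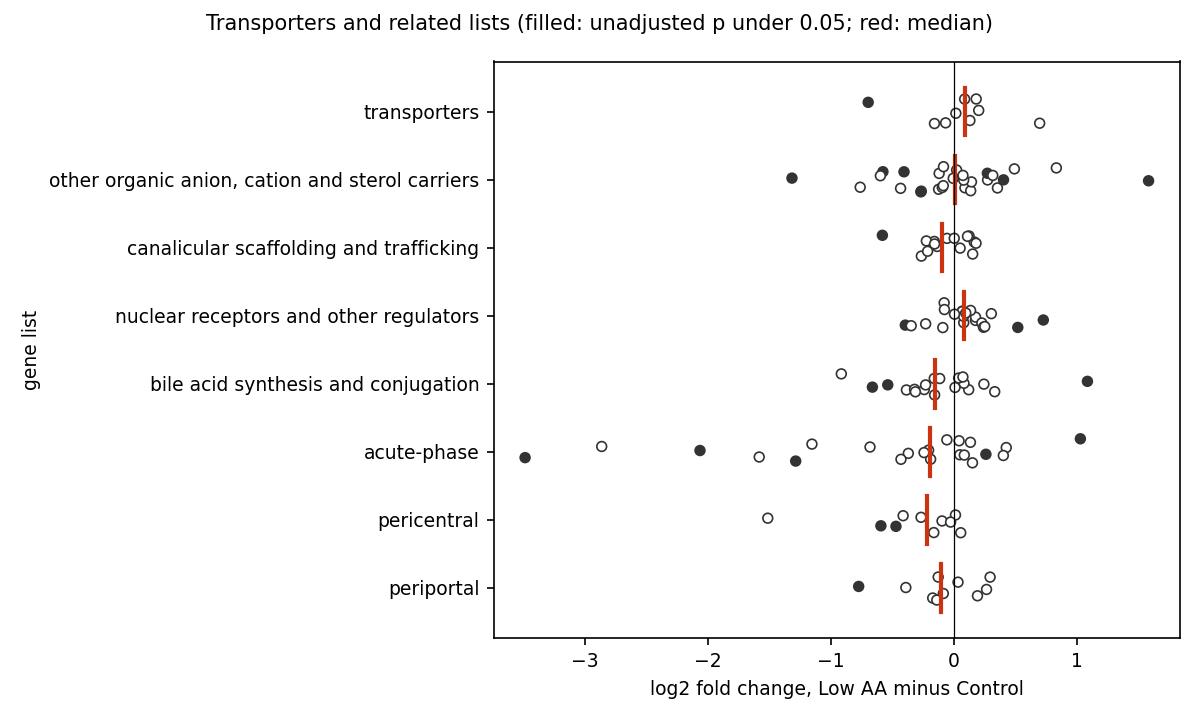
Log2 fold changes of Low AA over Control for the 9 transporters and the genes of 7 related lists, 1 point per gene, filled where the unadjusted p is under 0.05, with a red bar at the median of each list. The transporters centre on 0.09, with Abcc3 at -0.70 and Slco1a4 at 0.70 as their extremes, and the points of the acute-phase list reach furthest down.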

How the data were processed

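Liver RNA-seq values of 4 Control and 4 Low AA mice were read from the deposited table. Each mouse counts as 1 replicate, so p-values set the difference between diets against the spread between mice of the same diet. That spread is moderated over all genes. The deposited values are a signal, namely read counts per gene that the authors scaled by a factor per mouse and rounded. The scaling was inferred from the values (in H817, 44 genes hold 34 scaled read counts, 3 hold 35 and 44 hold 36), and how it was done is not given in the sources used here. Per the labels, the submitters' processing notes list bcl2fastq 1.8.2, STAR 2.5.0a, RSEM 1.2.6, edgeR 3.10.5, R 3.2.1 and the mm10 build, without roles. The authors also deposited their own signed fold change (a score) and FDR (a q-value), both left aside here.

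Since they are scaled, no count model was fitted, and limma 3.58.1 in R 4.3.3 was run on log2(value + 1) with a mean-variance trend over all 11784 genes, with Benjamini-Hochberg adjustment at 0.05. A filter on low values (1 or more in 4 mice or more) took out 0 genes, since the deposited table already held only genes with at least 28 in at least 3 mice. Fold changes are on the log2(value + 1) scale. The script was tested on simulated data. Lengths and positions came from GENCODE M21 (lengths for 10714 genes, or 90.9%), and the optional length correction removed a lowess fit on log length within each mouse. Promoters came from RefSeq (8 of 9 members matched, Abcc3 not), and 3 older symbols were matched by synonym. Members and lists were chosen with earlier results of these data known. The genes named were all 9 members, the listed genes with an adjusted p under 0.05 and the 2 smallest p per list, and the 2 genes nearest in profile to the 3 most variable members. Krt19, Sox9, Cela1, Nr0b2, Cyp39a1, Apcs, Cp, Saa1, Emr1 and Col1a1 were named after their values were seen. Alternatives were the pseudocount, filter, scaling, moderation, each mouse left out, F2212 and H828 both left out, and the length correction, the last 2 added after the data were seen. Intervals cover 95%.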

Additional observations from a re-analysis of the deposited data

Results flagged for a closer look

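Within the 4 Low AA mice, H828 lay apart from the others in 2 members. For Slco1a4 it was the lowest, with 2412 scaled read counts against 4759 to 4920 in the other 3 mice, and its gap to the nearest mouse took up 0.953 of the range of the diet on the log2 scale. For Abcb11 it was the highest, with 9458 scaled read counts against 6043 to 6149, and the gap took up 0.961 of the range on that scale. Both shares exceed Dixon's 95% critical value for 4 samples. In all, 34 sets of 4 mice were examined, 2 exceeded it, and chance alone gives about 1 in 20 sets.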

How the results depend on the processing

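The number of transporters called was 0 in each of 19 alternatives, and of 170 fold changes of single members under them 163 kept their sign and 7 did not. With any 1 mouse left out, the log2 fold change lay between -0.22 and 0.22 for Slco1a1 (below 0 without F2212, F2110 or H828), between -0.023 and 0.46 for Abcc2 (below 0 without F2212) and between -0.23 and 0.077 for Abcb11 (above 0 without F7111). With F2212 and H828 both left out it was -0.40 for Slco1a1 and -0.15 for Abcc2, and the cause was not tested. Genes of the 7 lists called numbered 0 in the main analysis, 0 to 1 with any 1 mouse left out (Apcs without F2212 at a log2 fold change of 1.34, Ephx1 without F7111, Saa4 without F2110, Slc10a2 without H817 and Orm1 without H1315), 1 with F2212 and H828 both left out (Apcs) and 4 after the length correction (Cyp27a1, Ephx1, Orm1 and Slco2a1). Over all genes, calls numbered 47 in the main analysis, 16 to 77 with any 1 mouse left out, 19 among the 8000 most abundant genes (which leave out Abcc4), 30 without the mean-variance trend and 106 after the length correction. No paired analysis was possible because the mouse codes are not shared between the diets and replicate numbers were given in accession order only. Depth per gene is known only as scaled values, lowest for Abcc4 among the members, so no counting interval is given.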
